A study of Mus musculus with 8 samples.

Results

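The genes described here make, move, store and export cholesterol, and were examined in dendritic cell (DC)-restricted progenitors (CDPs) of mouse bone marrow (BM). A list of 36 gene symbols was matched to the deposited table of counts through GENCODE vM21, a mouse gene annotation on the genome build GRCm38. Of the 16119 genes in the table, 35 were on the list, and the other listed gene, Nr1h3, was not analysed here. All 35 were among the 15837 genes that passed the filter on low counts. They comprised 20 genes of sterol synthesis, 6 of SREBP2 control, 4 of sterol transport and storage, the receptor gene Nr1h2 and 4 targets of the liver X receptors (LXRs).

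Cells build cholesterol from acetyl-CoA by way of mevalonate, isoprenoid pyrophosphates, squalene and lanosterol. When sterol in the endoplasmic reticulum (ER) is scarce, the escort protein SCAP takes the transcription factor SREBP2 to the Golgi, where the site-1 and site-2 proteases (Mbtps1 and Mbtps2) free its active part, and the genes of the pathway are transcribed. When sterol is plentiful, the INSIG proteins hold SCAP back in the ER. LXRs are nuclear receptors that bind oxysterols and switch on genes of sterol efflux, and in blood-forming progenitors efflux is known to restrain proliferation.

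The mice were males of the C57BL/6 strain by the labels and C57BL/6J by the study's methods, and the labels name no transgene or deletion. The DIO (diet-induced obese) group ate a high fat diet (HFD, 60 kcal% fat), and the DIO-Control group, matched for age, ate control feed (CF, 10 kcal% fat). The labels give 16 weeks of feeding for the DIO mice, the study's account of its model gives up to 16 weeks, and its methods give an age of 16 weeks at purchase with the diets kept up in-house. CDPs (Lin-, c-Kit intermediate, Sca1 low, CD115+, Flt3+) were sorted, about 50000 cells per library, and total RNA was amplified and sequenced in 4 libraries per diet. The sources used here do not say whether a library holds cells of 1 mouse or of several, so p-values measure the spread between these libraries.

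Each library held 28203651 to 48409689 counts. Ribosomal RNA genes took 42.3% to 44.3% of them in HFD and 33.9% to 40.5% in CF, and short non-coding genes took 8.495% to 13.6% in HFD and 21.7% to 33.9% in CF, so the composition of the libraries moved with the diet. Levels were therefore scaled by TMM, a method that sets libraries equal over most genes, and are given as CPM, the counts per 1000000 counts of a scaled library. The markers of the sort were present, with Flt3 at 88.8 CPM in HFD replicate 1 and 228 to 378 CPM in the other libraries, and Csf1r at 79.4 to 133 CPM. HFD replicate 1 stood apart, with a summed level of 15 neutrophil markers of 20960 CPM against 994 to 6723 CPM in the other libraries, and of 10 erythroid markers of 831 CPM against 120 to 204 CPM. The summed level of 6 plasmacytoid DC markers was 172 to 401 CPM in HFD and 176 to 225 CPM in CF, that of 7 B cell markers was 46.5 to 109 and 46.6 to 76.4 CPM, and that of 10 proliferation markers was 2023 to 2472 and 1985 to 2252 CPM. The 7 conventional DC markers had a sum of 89.96 to 235 CPM in HFD and 209.6 to 304 CPM in CF, 6 of them lower in HFD and 1 of these at an unadjusted p below 0.05. No marker was at 0 in any library in these lists. At an unadjusted p below 0.05, 5 of the 6 plasmacytoid DC markers and 5 of the 7 B cell markers were higher in HFD. At this p, 3.22% of all genes tested were higher and 5.34% lower. All 10 erythroid markers and 14 of the 15 neutrophil markers also had a higher fitted level in HFD. The part of these cells in the results was not tested.

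Most sterol genes had a higher mean level in HFD than in CF, by amounts that did not pass the test across all genes. The log2 fold change (HFD against CF, edgeR's quasi-likelihood test) was above 0 for 28 of the 35 genes, with a median of 0.20, while 59.7% of all genes tested and 64.6% of protein-coding genes lay above 0, with medians of 0.05 and 0.07. At an adjusted p below 0.05 (Benjamini-Hochberg over all genes tested), 0 sterol genes were called higher and 0 lower, where the share over all genes was 0% higher and 0.423% lower. At an unadjusted p below 0.05, 7 sterol genes were higher and 0 lower, against 3.22% and 5.34% of all genes tested. The same 7 genes had every HFD library above every CF library, a separation that 2.58% of all genes tested showed in this direction and 3.58% in the other. Of 11775 protein-coding genes tested, 437 were higher and 197 lower at the unadjusted p, and 331 and 112 were separated. At the adjusted p, 0 protein-coding genes were higher and 4 lower. Few protein-coding genes were thus lower, so a count of 0 lower among 35 sterol genes says little. Of the 7, 6 encode synthesis enzymes (Sqle, Pmvk, Idi1, Fdft1, Hsd17b7 and Msmo1) and the seventh, Lpcat3, is an LXR target. In RNA of a sorted population, more RNA per cell and more cells that hold the RNA cannot be told apart.

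DESeq2, a count test run as an alternative, called 2 sterol genes higher, Sqle (adjusted p = 0.0045) and Pmvk (adjusted p = 0.034), and 0 lower, against 0.404% and 3.18% of all genes called. When HFD replicate 1, the library with the high neutrophil markers, was left out, edgeR called 1 sterol gene higher, Sqle (adjusted p = 0.027), against 0.214% of all genes, and 12 sterol genes were higher at an unadjusted p below 0.05, where the share of all genes was 4.79%. Without HFD replicate 4 the latter count was 4 against 1.75% of all genes, and without CF replicate 1 it was also 4, against 2.53%.

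**Figure D1:**
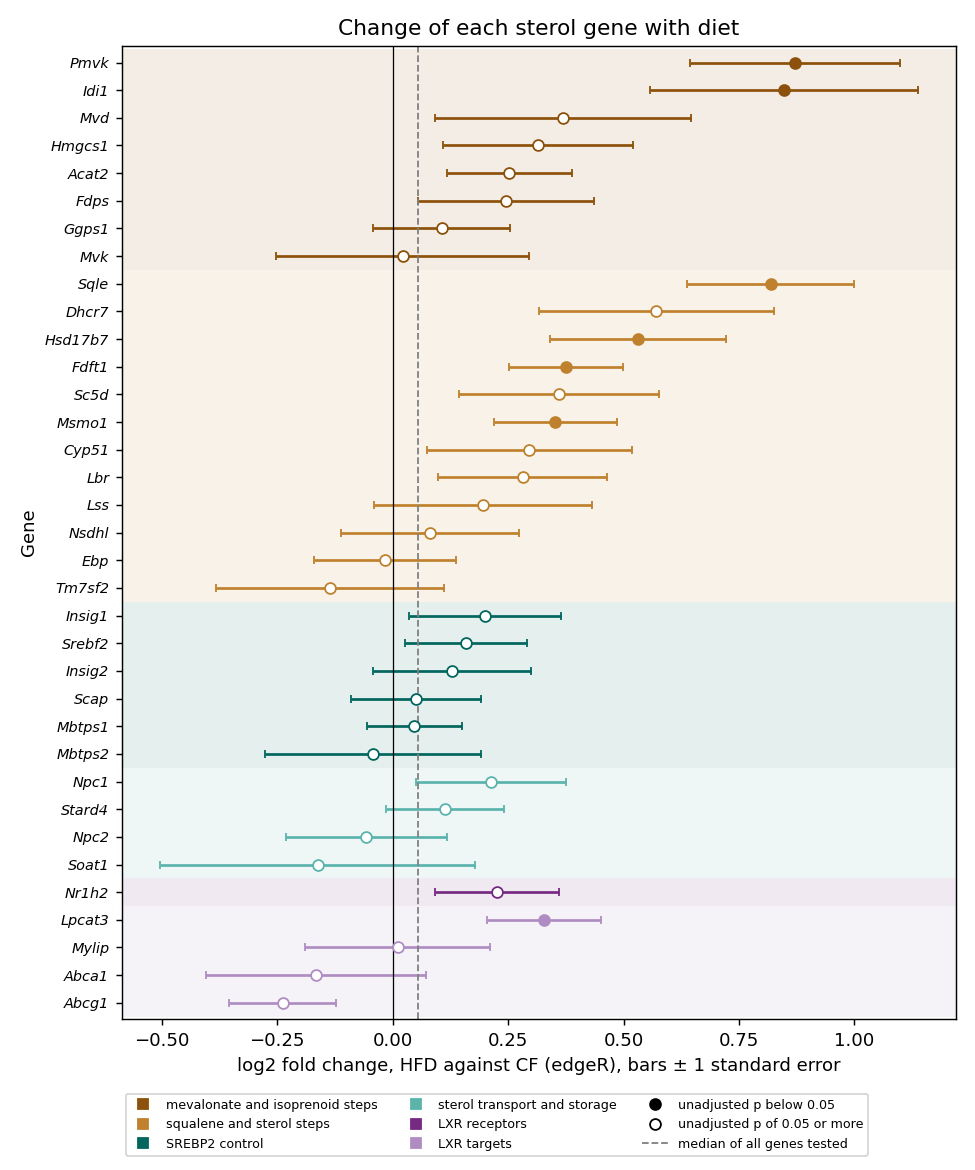
Log2 fold change of 35 sterol genes between HFD and CF (horizontal axis, edgeR, bars of 1 standard error, 4 libraries per diet), grouped by role, with the median of all genes tested as a dashed line. The 7 filled points had an unadjusted p below 0.05, all lay above 0, and 18 of the 20 synthesis genes lay above 0.

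Levels between genes were compared per kb of exons. Lbr stood at the top with 47.9 CPM per kb on average (38.0 to 70.4 over the 8 libraries). Lbr encodes the lamin B receptor, an inner nuclear membrane protein that also has sterol C14-reductase activity, and its exons overlap those of an annotated ribosomal RNA gene on the same strand, so its level is uncertain. Npc2, the soluble sterol carrier of lysosomes, followed with 14.2 CPM per kb (10.4 to 18.2), and Srebf2, which encodes SREBP2, with 11.3 (9.504 to 13.7). Every value of these 3 genes lay above every value of the remaining genes, and the ranges of Npc2 and Srebf2 overlapped. Most synthesis genes lay far lower, and 4 genes had means under 1 CPM per kb: Hsd17b7 (0.744), Mvk (0.676), Tm7sf2 (0.479) and Lss (0.337). The ranges of neighbours in this order overlapped from Soat1 (5.21) down to Lss (0.337).

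**Figure D2:**
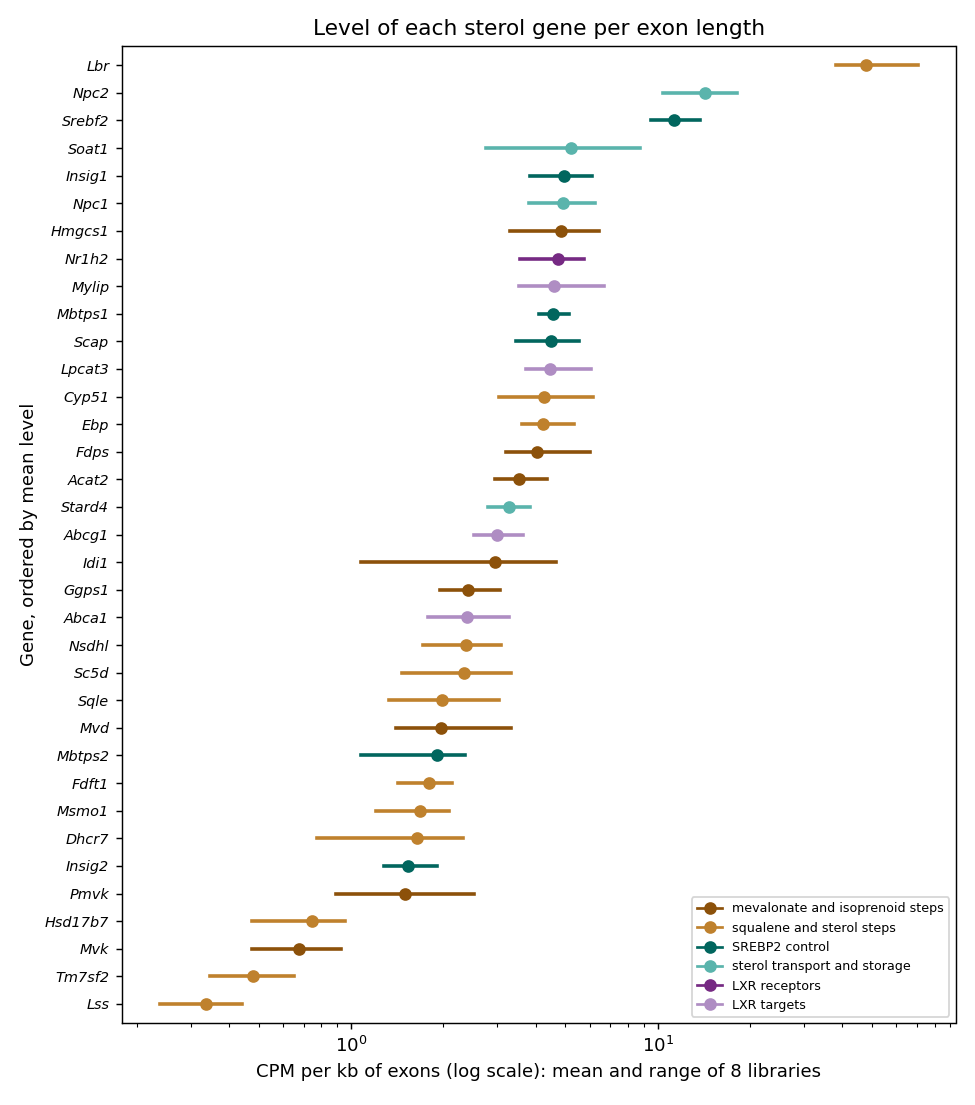
Level of 35 sterol genes in CPM per kb of exons (horizontal log axis), with the mean (point) and range (line) of 8 libraries and colours for the role. Lbr, Npc2 and Srebf2 lay above all other genes, and Lss, Tm7sf2, Mvk and Hsd17b7 lay lowest.

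Some members share a step, and their ratio was taken within each library. The sterol C14-reductase step can be carried out by Lbr or by Tm7sf2, and Lbr exceeded Tm7sf2 per kb by 69.4-fold to 142-fold in the 8 libraries. Insig1 exceeded Insig2, its paralog in the ER, by 2.04-fold to 4.19-fold. The site-1 protease gene Mbtps1 exceeded the site-2 protease gene Mbtps2 by 2.03-fold to 4.03-fold, with the highest ratio in HFD replicate 1. The ratio of the efflux genes Abca1 and Abcg1 was 0.492 to 1.04. The ratio of Hmgcs1 to Mvk, both early in the pathway, was 6.15 to 9.54 in HFD and 5.07 to 9.29 in CF. In none of these 5 pairs were the diets apart. The ratio of Sqle to Lss, which act in succession on squalene and its epoxide, was 5.90 to 7.89 in HFD and 3.32 to 5.39 in CF, and the diets did not overlap. Sqle by itself separated the diets and Lss did not, so this ratio adds no separate result. The pairs of Hmgcs1 with Mvk and of Sqle with Lss were not among those planned.

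The mevalonate and isoprenoid steps were measured by 8 genes, whose log2 fold changes were all above 0 (0.02 to 0.87, median 0.28, or 0.17 without HFD replicate 4). Of these genes 2, Pmvk and Idi1, had an unadjusted p below 0.05, and 3.22% of all genes tested were higher at this p. Mvk, at the lower end, was below 0 in 7 of 19 alternative analyses, and Ggps1 in 1.

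Pmvk (ENSMUSG00000027952, chromosome 3 from 89454541 to 89469013) encodes phosphomevalonate kinase. Its level was 4.3, 3.21, 2.31 and 3.50 CPM in HFD replicates 1 to 4 and 1.89, 1.53, 1.95 and 1.90 CPM in CF replicates 1 to 4. Every HFD library lay above every CF library, with HFD replicate 1 the highest. The mean was 3.33 ± 0.82 CPM in HFD and 1.82 ± 0.19 CPM in CF (SD, n = 4), a log2 fold change of 0.87 ± 0.23 (SE; edgeR, unadjusted p = 0.0041, adjusted p = 0.17). This rested on 48 to 144 counts per library, and without HFD replicate 1 the log2 fold change was 0.72.

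Idi1 (ENSMUSG00000058258, chromosome 13 from 8885501 to 8892451) encodes the isomerase that interconverts isopentenyl and dimethylallyl pyrophosphate. It had 10.3, 15.2, 11.2 and 16.4 CPM in the HFD libraries and 3.77, 9.48, 8.98 and 7.28 CPM in the CF libraries. The groups did not overlap, but HFD replicate 1 lay close to CF replicate 2, and CF replicate 1 was the lowest of all. The log2 fold change was 0.85 ± 0.29 (edgeR, unadjusted p = 0.017, adjusted p = 0.35), and 0.63 without CF replicate 1. A transcribed region annotated on the opposite strand overlaps its exons by 323 nt, and the strand used in counting is not given in the sources used here.

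The entry enzymes were higher in HFD on average with groups that overlapped. Acat2, the cytosolic thiolase, had 8.15, 9.75, 9.94 and 11.1 CPM in HFD and 8.92, 8.56, 7.68 and 7.51 CPM in CF. Only HFD replicate 1 lay within the range of CF, and the log2 fold change was 0.25 ± 0.14 (edgeR, unadjusted p = 0.094, adjusted p = 0.72), or 0.15 without HFD replicate 4. Hmgcs1, the HMG-CoA synthase gene, ranged from 17.6 to 29.5 CPM in HFD and from 15.2 to 25.2 CPM in CF. Mvk, the mevalonate kinase gene, had 1.67 to 2.17 CPM in HFD, inside its CF range of 1.27 to 2.49 CPM.

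Mvd, mevalonate diphosphate decarboxylase, ranged from 2.86 to 6.19 CPM in HFD and from 2.60 to 3.98 CPM in CF, and its highest value was in HFD replicate 1. Farnesyl pyrophosphate synthase, Fdps, had 13.5 to 25.3 CPM in HFD and 14.2 to 17.2 CPM in CF. Its log2 fold change of 0.24 was 0.01 without HFD replicate 4, the library with the highest level. Ggps1, which makes the geranylgeranyl pyrophosphate used in prenylation, had 10.3 to 14.5 CPM in HFD and 9.20 to 12.2 CPM in CF.

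The squalene and sterol steps were measured by 12 genes, of which 10 had a log2 fold change above 0 (median 0.32, range -0.14 to 0.82). At an unadjusted p below 0.05, 4 were higher and 0 lower, against 3.22% and 5.34% of all genes tested.

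Sqle (ENSMUSG00000022351, chromosome 15 from 59315077 to 59331192) encodes squalene epoxidase, a rate-limiting enzyme of the pathway. Its level was 10.2, 16.3, 12.7 and 16.9 CPM in HFD and 7.44, 9.26, 7.37 and 7.75 CPM in CF. Every HFD library lay above every CF library, and HFD replicate 1 was the lowest of its diet. The means were 14.02 ± 3.14 and 7.95 ± 0.88 CPM (SD, n = 4), 1.76-fold apart. The log2 fold change was 0.82 ± 0.18 (edgeR, unadjusted p = 0.0015), with the lowest adjusted p of the sterol genes at 0.11. Leaving out each library in turn gave log2 fold changes of 0.68 to 0.94.

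Fdft1 (ENSMUSG00000021273, chromosome 14 from 63145150 to 63179578) encodes squalene synthase, which commits farnesyl units to sterols. It had 7.73, 8.998, 8.89 and 8.79 CPM in HFD and 6.02, 6.49, 7.02 and 6.99 CPM in CF, with no overlap and a small spread within each diet. The log2 fold change was 0.38 ± 0.12 (edgeR, unadjusted p = 0.014, adjusted p = 0.32). Its exons overlap those of Ctsb on the opposite strand by 774 nt.

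Msmo1 (ENSMUSG00000031604, chromosome 8 from 64718139 to 64733792) encodes the C4-methylsterol monooxygenase. It had 11.3, 12.8, 10.6 and 11.7 CPM in HFD and 7.39, 10.02, 9.35 and 9.57 CPM in CF. The diets were apart by a small gap between HFD replicate 3 and CF replicate 2. On the log2 scale the change was 0.35 ± 0.13 (edgeR, unadjusted p = 0.028, adjusted p = 0.45), and 0.27 without CF replicate 1, the lowest library.

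Hsd17b7 (ENSMUSG00000026675, chromosome 1 from 169949535 to 169969241) encodes the 3-ketosteroid reductase of the same demethylation. It had 4.17, 4.66, 4.25 and 4.88 CPM in HFD and 2.43, 3.34, 3.94 and 2.73 CPM in CF. All HFD values lay above the CF values, of which CF replicate 3 came nearest. Between the diets the log2 fold change was 0.53 ± 0.19 (edgeR, unadjusted p = 0.022, adjusted p = 0.41).

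Dhcr7, the reductase of the last step of the Kandutsch-Russell branch, had 8.79, 11.8, 13.5 and 11.5 CPM in HFD and 7.73, 10.9, 7.59 and 4.52 CPM in CF. HFD replicate 1 lay below CF replicate 2, so the groups overlapped. Its log2 fold change was 0.57 ± 0.25 (edgeR, unadjusted p = 0.052, adjusted p = 0.59), and 0.39 without CF replicate 4. Tm7sf2, the sterol C14-reductase gene with the lowest log2 fold change among the synthesis genes, had 2.38, 1.73, 2.41 and 1.53 CPM in HFD and 1.99, 1.75, 2.87 and 2.24 CPM in CF. These values overlapped throughout. The fitted change of -0.14 ± 0.25 (log2 scale, edgeR adjusted p = 0.95) was 0.05 when libraries were scaled by size alone, -0.24 without HFD replicate 3 and 0.01 without CF replicate 3.

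The other enzymes overlapped between the diets. Lanosterol synthase, Lss, had 2.57 to 4.76 CPM in HFD and 2.69 to 4.31 CPM in CF. Lanosterol 14-alpha-demethylase, Cyp51, had 13.4 to 27.2 CPM in HFD and 13.9 to 18.9 CPM in CF. Both were lowest of their diet in HFD replicate 1 and highest in HFD replicate 4.

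Lbr had 335, 250, 181 and 235 CPM in HFD and 197, 224, 218 and 184 CPM in CF, so that HFD held both the highest and the lowest library. The C4-decarboxylase gene Nsdhl had 5.75 to 8.81 CPM in HFD and 4.91 to 7.81 CPM in CF. Ebp, the sterol isomerase, had 8.71 to 11.2 CPM in HFD and 8.34 to 12.3 CPM in CF. Sc5d, the C5-desaturase, had 9.42 to 16.2 CPM in HFD and 7.16 to 12.3 CPM in CF. Exons of Fdps and Tm7sf2 overlap another gene on the same strand (Gm43738 by 1124 nt and Vps51 by 532 nt), and those of Hmgcs1, Ggps1, Lss and Cyp51 overlap a gene on the opposite strand, so their counts are uncertain. The exons of Sqle, Pmvk, Msmo1 and Hsd17b7 overlap those of no other annotated gene.

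**Figure D3:**
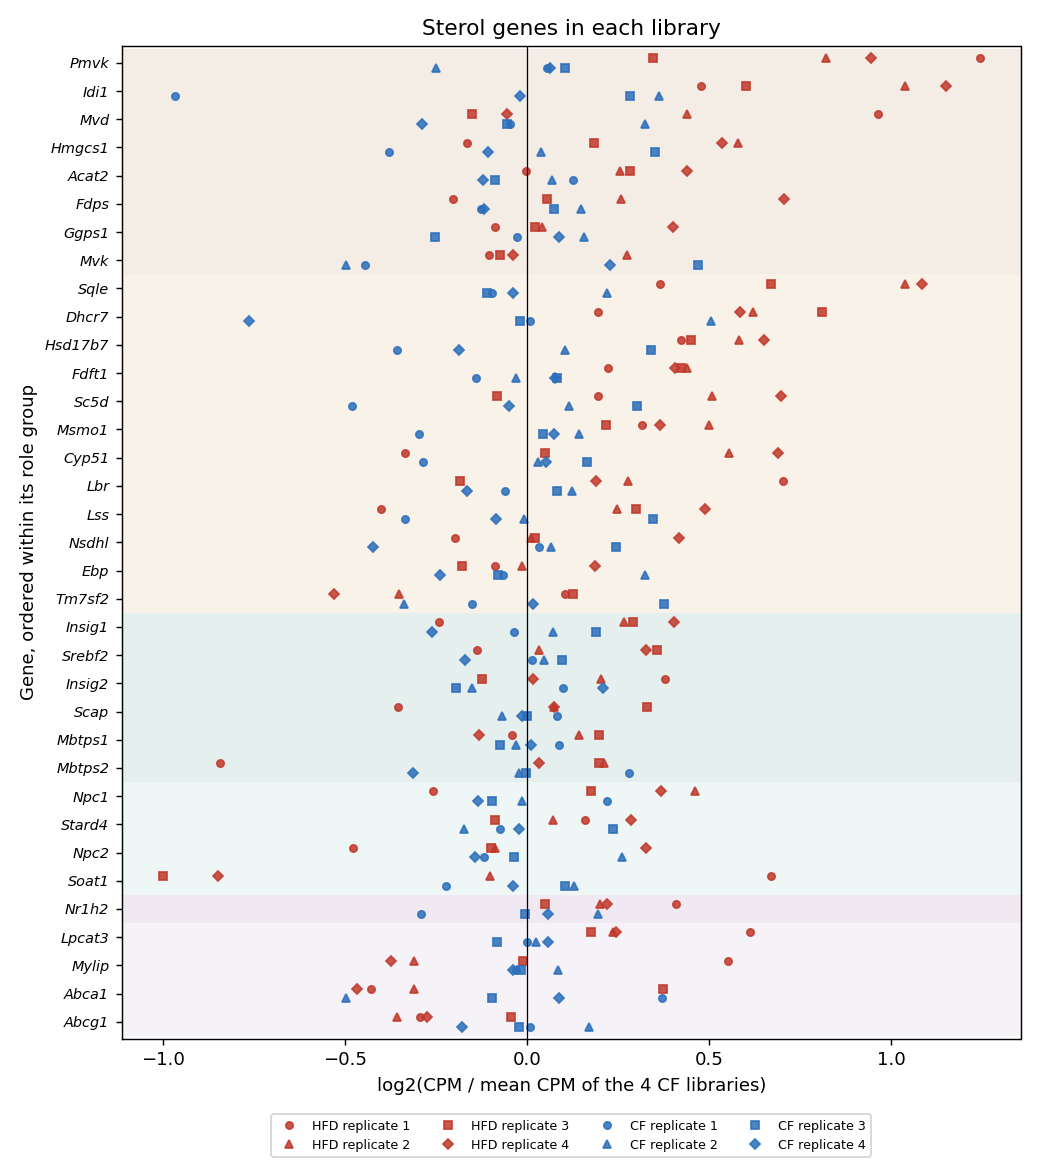
Level of 35 sterol genes in each library as log2 of the CPM over the mean CPM of the 4 CF libraries (horizontal axis), with symbols for the replicate and colours for the diet. Pmvk, Idi1, Sqle, Hsd17b7, Fdft1, Msmo1 and Lpcat3 show every HFD library to the right of every CF library.

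Of the 20 synthesis genes, 10 had their highest value of the 8 libraries in HFD replicate 4 and 3 each in HFD replicates 1 and 2. HFD replicate 1 was the lowest of its diet for 13 of the 20. The lowest value of all 8 was in CF replicate 1 for 6 genes and in CF replicate 4 for 5. Without Lbr, the synthesis genes together had 386, 564, 493 and 618 CPM of protein-coding counts in HFD replicates 1 to 4 and 372, 430, 441 and 402 in CF replicates 1 to 4. On this scale, which leaves out ribosomal and short RNA, the groups overlapped only because HFD replicate 1 lay below 3 CF libraries. The summed plasmacytoid DC markers were 172, 330, 281 and 401 CPM in HFD replicates 1 to 4 and 176, 225, 210 and 177 CPM in CF replicates 1 to 4, which puts the HFD libraries in the same order as the synthesis genes. The summed conventional DC markers were 89.96, 220, 212 and 235 CPM in HFD, again in this order, and 285, 304, 235 and 209.6 CPM in CF. In CF neither marker list had the order of the synthesis genes. The part of either kind of cell was not tested. The median log2 fold change of the 20 genes was 0.31 with all libraries, 0.37 without HFD replicate 1, 0.25 without CF replicate 1 and 0.19 without HFD replicate 4.

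The promoters of these genes were read from RefSeq (GRCm38.p6), where 30 of the 36 listed genes were matched. Fdps, Fdft1, Sqle, Stard4, Npc1 and Abcg1 were not matched. Each window ran from 250 bases before to 50 after the start. The 250 bases before the start are shown 5′ to 3′ on the strand of the gene for 5 genes with windows in the table: the 4 of the 7 that separated the diets with 1 start in the table, and Hmgcs1, the gene with a sterol regulatory element match. Capitals mark CCAAT, read as ATTGG on the other strand, and the sterol regulatory element. The stretches lie at chr13:119690101-119690350 (plus strand), chr13:8885356-8885605 (plus), chr8:64733579-64733828 (minus), chr1:169969206-169969455 (minus) and chr6:124662854-124663103 (plus).
Hmgcs1: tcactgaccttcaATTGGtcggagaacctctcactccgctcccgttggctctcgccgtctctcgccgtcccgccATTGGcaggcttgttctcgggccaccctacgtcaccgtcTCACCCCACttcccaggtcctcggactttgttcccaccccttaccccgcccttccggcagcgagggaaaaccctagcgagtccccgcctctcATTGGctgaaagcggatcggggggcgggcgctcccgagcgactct
Idi1: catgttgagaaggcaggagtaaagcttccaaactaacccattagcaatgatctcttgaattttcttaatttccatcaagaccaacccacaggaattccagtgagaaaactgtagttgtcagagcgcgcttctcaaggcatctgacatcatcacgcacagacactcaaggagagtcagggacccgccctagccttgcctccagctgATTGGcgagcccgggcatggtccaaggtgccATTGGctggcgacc
Msmo1: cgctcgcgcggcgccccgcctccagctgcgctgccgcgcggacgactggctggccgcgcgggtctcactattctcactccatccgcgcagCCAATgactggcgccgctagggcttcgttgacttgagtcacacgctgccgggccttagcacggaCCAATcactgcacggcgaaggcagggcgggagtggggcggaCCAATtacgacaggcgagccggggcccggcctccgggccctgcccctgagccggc
Hsd17b7: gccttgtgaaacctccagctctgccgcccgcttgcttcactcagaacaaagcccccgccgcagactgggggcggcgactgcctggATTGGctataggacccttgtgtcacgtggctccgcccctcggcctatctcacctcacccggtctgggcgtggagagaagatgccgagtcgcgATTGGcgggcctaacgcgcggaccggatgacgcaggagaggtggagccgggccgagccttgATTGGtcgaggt
Lpcat3: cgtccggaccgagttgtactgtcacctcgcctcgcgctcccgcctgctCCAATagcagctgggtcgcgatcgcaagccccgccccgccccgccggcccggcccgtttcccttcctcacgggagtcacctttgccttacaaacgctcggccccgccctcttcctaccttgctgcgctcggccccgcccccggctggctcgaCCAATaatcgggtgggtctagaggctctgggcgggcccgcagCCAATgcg

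CCAAT, the letters bound by the factor NF-Y that acts beside SREBP2, stood on either strand in the windows of 15 of 16 SREBP2 targets (93.8%) with a RefSeq entry, against 43% of the genes tested that had one and 41.1% of all genes in the table. Among all 30 sterol genes with an entry, 23 (76.7%) held it. The sterol regulatory element, searched as TCACNCCAC on both strands, was found in 1 of the 30, as TCACCCCAC at -137 from the start of Hmgcs1, and 1.44% of all genes in the table held a match. Only this form of the letters was searched, within these windows, so a missing match does not show that a gene lacks the element. The GC box GGGCGG stood in 25 of 30 (83.3%), against 66.7% of the genes tested, and the E-box CACGTG in 6 of 30 (20%), against 11.9%. The LXR element was searched only as the exact letters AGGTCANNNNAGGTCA, which were in 0 of 30 and in 4 of 27025 genes in all. A string this rare cannot show whether these windows hold LXR elements, and forms with other letters were not searched. None of these motifs contains another, and the matches in capitals do not overlap. In the stretch of Lpcat3 a pair of GC box matches share a base, and CACGTG reads the same on both strands. A match describes letters in a window and is no evidence of binding. The window of Mvk, whose levels overlapped between the diets, held 5 CCAAT matches, and that of Idi1 held 2.

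The machinery that controls SREBP2 had log2 fold changes near those of all genes tested, with a median of 0.09 over 6 genes (-0.04 to 0.20), none with an unadjusted p below 0.05. This median was 0.16 without HFD replicate 1, 0.06 without CF replicate 2 or CF replicate 3, and 0.04 without HFD replicate 3. Srebf2 had 69.8, 78.7, 98.4 and 96.3 CPM in HFD and 77.6, 79.3, 82.2 and 68.3 CPM in CF. The HFD libraries thus spanned more than the CF libraries, with replicates 3 and 4 above all of CF and replicate 1 within it. Insig1, itself a target of SREBP2, had 12.03, 17.1, 17.4 and 18.8 CPM in HFD and 13.9, 14.95, 16.3 and 11.9 CPM in CF. HFD replicates 2 to 4 lay above all CF libraries and HFD replicate 1 near the bottom, and the log2 fold change was 0.20 ± 0.16 (edgeR, unadjusted p = 0.25, adjusted p = 0.84), with 0.09 without HFD replicate 4 and 0.32 without HFD replicate 1.

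Scap had 25.6 to 41.1 CPM in HFD and 31.2 to 34.6 CPM in CF. Insig2 had 4.67 to 6.61 and 4.44 to 5.87 CPM, and Mbtps1 had 43.1 to 54.2 and 44.8 to 50.2 CPM. All 3 overlapped between the diets, and the exons of Scap overlap a region annotated on the opposite strand by 985 nt. Mbtps2, which had the lowest log2 fold change of the group, had 10.9, 22.7, 22.5 and 20.02 CPM in HFD and 23.8, 19.3, 19.5 and 15.8 CPM in CF. HFD replicate 1 lay far below the other libraries, and the log2 fold change of -0.04 ± 0.23 (edgeR, adjusted p = 0.98) was 0.15 without it. Its exons overlap those of Yy2 on the same strand by 2867 nt, so its counts are uncertain.

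Transport and storage genes went in no common direction, with a median log2 fold change of 0.03 over 4 genes. This median was -0.01 without HFD replicate 4 and 0.10 without HFD replicate 3. Npc1, the lysosomal membrane protein that passes cholesterol out of lysosomes, had 42.97, 70.9, 58.1 and 66.4 CPM in HFD and 59.8, 50.9, 48.1 and 46.9 CPM in CF. HFD replicate 1 was the lowest of all 8, CF replicate 1 the highest of its diet, and the log2 fold change was 0.21 ± 0.16 (edgeR, unadjusted p = 0.22, adjusted p = 0.82), with 0.12 without HFD replicate 4 and 0.34 without HFD replicate 1. Its exons overlap genes on the opposite strand, Rmc1 among them, by up to 511 nt. Npc2 had 56.6 to 98.9 CPM in HFD and 71.4 to 94.6 CPM in CF. Stard4, a cytosolic sterol carrier and SREBP2 target, had 16.6 to 21.5 CPM in HFD and 15.6 to 20.8 CPM in CF.

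Soat1 encodes the enzyme that esterifies cholesterol for storage, and had the highest coefficient of variation within diets of the sterol genes, 40.4% when both diets are pooled. Its level was 85.7, 50.2, 26.9 and 29.9 CPM in HFD and 46.2, 58.9, 57.9 and 52.5 CPM in CF. The highest and the lowest libraries were both HFD, and all CF libraries lay between them, with means of 48.2 ± 27.0 CPM in HFD and 53.9 ± 5.88 CPM in CF (SD, n = 4). HFD against CF, the log2 fold change was -0.16 ± 0.34 (edgeR, adjusted p = 0.96), with -0.60 without HFD replicate 1 and 0.04 without HFD replicate 3. In the same libraries the summed neutrophil markers were 20960, 3673, 1321 and 994 CPM in HFD replicates 1 to 4, and their part in the level of Soat1 was not tested.

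Nr1h2, the LXR-beta gene, had 19.4, 16.7, 15.1 and 16.99 CPM in HFD and 11.9, 16.7, 14.5 and 15.2 CPM in CF. The ranges overlapped, with HFD replicate 1 highest and CF replicate 1 lowest. Its log2 fold change was 0.23 ± 0.13 (edgeR, unadjusted p = 0.13, adjusted p = 0.76), or 0.14 without CF replicate 1.

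The 4 LXR targets had a median log2 fold change of -0.08 (-0.15 without HFD replicate 1 to -0.0075 without CF replicate 1), and 2 of them were above 0. Abcg1, an efflux transporter that loads cholesterol onto HDL, had 19.2, 18.4, 22.9 and 19.5 CPM in HFD and 23.7, 26.5, 23.2 and 20.8 CPM in CF. Of the HFD libraries only replicate 3 lay above the lowest CF library. On the log2 scale the change was -0.24 ± 0.12 (edgeR, unadjusted p = 0.071, adjusted p = 0.66), and it remained below 0 in all 19 alternative analyses (-0.31 to -0.03).

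Lpcat3 (ENSMUSG00000004270, chromosome 6 from 124663027 to 124704418) encodes a lysophospholipid acyltransferase that puts polyunsaturated chains into membrane phospholipids. It had 19.7, 15.2, 14.6 and 15.3 CPM in HFD and 12.9, 13.1, 12.2 and 13.4 CPM in CF. The diets did not overlap, and HFD replicate 1 stood above the rest. Between the diets the log2 fold change was 0.33 ± 0.12 (edgeR, unadjusted p = 0.027, adjusted p = 0.44), and 0.22 without HFD replicate 1. Its exons overlap those of Emg1 on the opposite strand by 334 nt.

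Abca1, the transporter that starts HDL formation, had 18.9 to 33.8 CPM in HFD and 18.5 to 33.8 CPM in CF, nearly the same range. Mylip encodes the ubiquitin ligase IDOL, which marks lipoprotein receptors for degradation. It had 21.6 CPM in HFD replicate 1, 11.4 to 14.6 CPM in the other HFD libraries and 14.4 to 15.7 CPM in CF. Its log2 fold change of 0.01 was below 0 in 10 of 19 alternatives.

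SREBP2 targets were set against LXR targets. The 20 SREBP2 targets were 18 synthesis genes with Insig1 and Stard4. At an unadjusted p below 0.05, 6 of them and 1 of the 4 LXR targets were higher, against 3.22% of all genes tested. The median log2 fold change of the 20 was 0.31, and its difference from the median of the LXR targets was 0.38. Both values hung on single libraries. The median of the SREBP2 targets was 0.17 without HFD replicate 4, and the difference was 0.18 without HFD replicate 4, 0.23 without CF replicate 1, 0.25 without HFD replicate 2 and 0.52 without HFD replicate 1. The mean log2 CPM of the SREBP2 targets was 2.93, 3.19, 2.99 and 3.25 in HFD and 2.58, 2.84, 2.94 and 2.67 in CF. HFD replicates 1 and 3 were close to CF replicate 3, and HFD replicates 2 and 4 lay higher. The mean of the LXR targets was 4.32, 4.03, 4.34 and 3.997 in HFD and 4.302, 4.16, 4.16 and 4.20 in CF.

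The difference between these means, SREBP2 targets minus LXR targets, was -1.40, -0.84, -1.34 and -0.75 in HFD and -1.72, -1.32, -1.22 and -1.52 in CF. HFD replicates 2 and 4 lay above all CF libraries, and HFD replicates 1 and 3 lay among them. The means were -1.08 ± 0.34 in HFD and -1.44 ± 0.22 in CF (SD, n = 4), and the difference of 0.36 was close to the spread within HFD. No p-value is given for these scores, since the members were chosen with results of these data known.

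**Figure D4:**
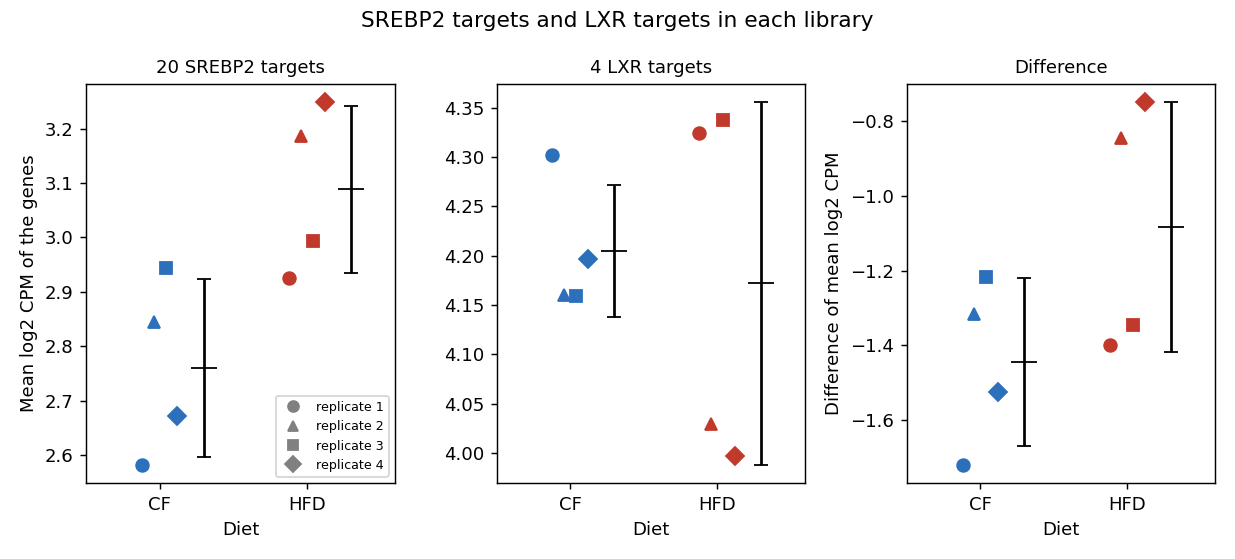
Mean log2 CPM of 20 SREBP2 targets, of 4 LXR targets and their difference in each library (vertical axes), by diet, with symbols for the replicate and a bar for the mean ± SD of 4 libraries. The difference was highest in HFD replicates 2 and 4, and HFD replicates 1 and 3 lay within the range of CF.

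Further genes of the pathway came from 6 lists of 75 genes, 68 of which were tested. With edgeR 0 were called at an adjusted p below 0.05, DESeq2 called 1 (Arl4c), and 4 were higher and 2 lower at an unadjusted p below 0.05, with a median log2 fold change of 0.07. Over all genes tested, DESeq2 called 3.18% lower, and 3.22% were higher and 5.34% lower at this unadjusted p in edgeR. Of 13 genes that use isoprenoids, 7 were above 0 and 0 passed the unadjusted threshold, and the lowest p belonged to Nus1, a subunit of the dolichol-making cis-prenyltransferase (log2 fold change 0.19, edgeR adjusted p = 0.75), and Rabggtb, a Rab prenyltransferase subunit (0.24, adjusted p = 0.77, or 0.14 without HFD replicate 1). Of 8 further genes of sterol synthesis and uptake, 5 were above 0, with Erg28, a scaffold of the C4-demethylation enzymes, at 0.33 (adjusted p = 0.68), or 0.14 without HFD replicate 4. Of 11 genes of ER protein turnover, 9 were above 0, among them Nploc4, a cofactor of the p97 ATPase, with 36.5 to 42.7 CPM in HFD and 30.6 to 34.7 CPM in CF (0.23, adjusted p = 0.53), and the ubiquitin ligase gene Rnf139 (0.25, adjusted p = 0.69).

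Of 19 genes of sterol transport and ester turnover, 13 were above 0, with 1 higher and 1 lower at an unadjusted p below 0.05. Nceh1, a cholesteryl ester hydrolase, overlapped between the diets (log2 fold change 0.45, edgeR adjusted p = 0.47). Stard3nl, which tethers endosomes to the ER, had 6.01 to 7.13 CPM in HFD and 7.43 to 8.97 CPM in CF, with no overlap (-0.32, adjusted p = 0.49).

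Of 14 LXR partners and further targets, 10 were above 0. At an unadjusted p below 0.05, 2 were higher and 1 lower, against 3.22% and 5.34% of all genes tested. Arl4c, a small GTPase and LXR target, had 13.3 to 17.4 CPM in HFD and 20.5 to 25.9 CPM in CF, without overlap. Its log2 fold change was -0.54 ± 0.13 (edgeR, unadjusted p = 0.0025, adjusted p = 0.14), below 0 in all 19 alternatives, and DESeq2 called it lower (adjusted p = 0.0071). Scd1, the stearoyl-CoA desaturase gene driven by LXR and SREBP1, had 2.48 to 14.1 CPM in HFD and 1.51 to 3.12 CPM in CF. Its log2 fold change of 1.54 (edgeR, unadjusted p = 0.021, adjusted p = 0.39) was 0.76 without HFD replicate 1. Of 3 oxysterol-related genes tested, Cyp27a1 was at -0.43 (adjusted p = 0.69) and Hsd3b7 at 0.24 (adjusted p = 0.93), or -0.03 without CF replicate 4.

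The scaling of the libraries moved all genes together. Scaled by library size alone, the median log2 fold change was 0.25 for all genes tested, 0.40 for the 35 sterol genes and 0.5002 for the synthesis genes. Relative to the median of all genes, the median of the sterol genes was 0.15 with TMM, 0.16 with library size alone and 0.13 with protein-coding genes alone. The whole list was lowest without HFD replicate 4, at 0.09, against 0.02 for all genes.

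**Figure D5:**
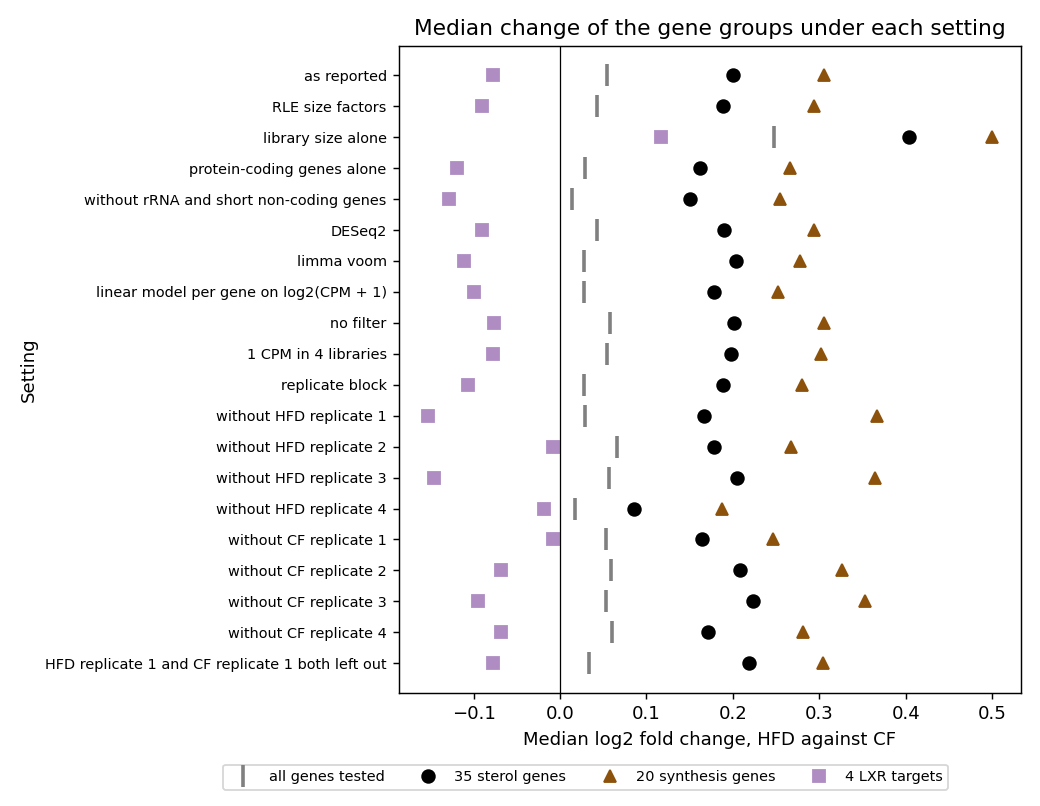
Median log2 fold change (horizontal axis) of all genes tested, 35 sterol genes, 20 synthesis genes and 4 LXR targets under each analysis setting (vertical axis). The synthesis genes lay above all genes tested in every setting, and the LXR targets lay below 0 except with library size alone.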

How the data were processed

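The authors deposited raw counts per gene for 8 libraries. According to the study's methods, reads of rRNA-depleted total RNA libraries (NuGen Ovation Solo) were placed on the genome with HISAT2, and pairs that mapped to a single place were counted by StringTie over GENCODE genes. GRCm38 is named in the submitters' processing notes, and the release and the strand used in counting are not given in the sources used here. No gene had a highest count under 29.

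The main test used edgeR 4.0.16 in R 4.3.3 (filterByExpr, TMM, robust quasi-likelihood fit on diet alone, Benjamini-Hochberg over 15837 genes). Standard errors were taken from the F statistic. Log2 CPM used a prior count of 2. Names, coordinates and exon lengths came from GENCODE vM21, where 16067 of 16119 genes were found. Alternatives used DESeq2 1.42.0, limma 3.58.1 (voom), a linear model on log2(CPM + 1), other scalings and filters, a replicate block, and libraries left out. Plots used matplotlib 3.10.9 under Python 3.11.15.

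The members, gene lists and tests were chosen with earlier results of these data known. Full statistics are given for members with an unadjusted p below 0.05 (or the 10 with the lowest p) and for the largest change in each direction in each role group; of each list of other pathway genes, the 2 with the lowest p are named. For 1 gene named in this way no result is given here. The other members are given by level and range.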

Additional observations from a re-analysis of the deposited data

Results flagged for a closer look

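In groups of 4 libraries, a value was singled out when its gap to the nearest library, divided by the range of the group, was above Dixon's critical value for 4 values, on the log2 CPM scale. This held in 5 of the 70 groups of sterol genes looked at, and chance gives about 1 in 20 groups. HFD replicate 1 was low for Fdft1 (2.96 against 3.14 to 3.18 in the other HFD libraries) and for Mbtps2 (3.46 against 4.33 to 4.50), and high for Lpcat3 (4.31 against 3.87 to 3.94). CF replicate 2 was low for Pmvk (0.66 against 0.96 to 1.01 in the other CF libraries) and high for Mylip (3.97 against 3.85 to 3.87). HFD replicate 1 is the library with the high neutrophil and erythroid markers, whose part in these values was not tested.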

How the results depend on the processing

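Of the 35 sterol genes, 23 kept the sign of their log2 fold change in all 19 alternatives, and 16 alternatives called 0 of them. The exceptions were DESeq2 (2 called higher), HFD replicate 1 left out (1) and HFD and CF replicates 1 both left out (1, chosen after seeing the data), so that leaving out 1 library gave 0 to 1. Over all genes, the number called higher was 10 with library size alone, 64 with DESeq2, 38 with both replicates 1 left out and 0 to 34 with 1 library left out. The number called lower was 0 with protein-coding genes alone, 7 without rRNA and short non-coding genes, 503 with DESeq2, 0 with the linear model, 350 with both replicates 1 left out, and 0 to 166 with 1 library left out.

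Replicate numbers did not pair the libraries (correlations of same-numbered deviations -0.44 to -0.08). With the replicate block, 0 genes were called lower, 4 sterol genes were higher at an unadjusted p below 0.05 (1.49% of all genes), and Mylip was at -0.037. That count was 4 to 12 with 1 library left out (1.75% to 4.79% of all genes). The count of lower sterol genes at this p was 1 with protein-coding genes alone (2.14% of all genes), without rRNA and short genes (2.67%) and with both replicates 1 left out (10.6%), and 0 to 1 with 1 library left out (4.6% to 9.76%). The median of the sterol genes was 0.40 with library size alone and 0.086 to 0.22 with 1 library left out, and that of the synthesis genes was 0.50 with library size alone and 0.19 to 0.37 with 1 library left out. The SREBP2 minus LXR target difference was 0.18 to 0.52 with 1 library left out.

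The cause of the changes of sign was not tested. With library size alone, Tm7sf2 was at 0.050, Ebp at 0.19, Mbtps2 at 0.20, Npc2 at 0.15, Soat1 at 0.0088 and Abca1 at 0.039. With both replicates 1 left out, Mvk was at -0.064, Mbtps2 at 0.26, Npc2 at 0.023, Abca1 at 0.061 and Mylip at -0.23. With protein-coding genes alone, Mvk was at -0.020 and Mylip at -0.031. Without rRNA and short non-coding genes, Mvk was at -0.032, Mbtps1 at -0.0033 and Mylip at -0.043. With RLE size factors Mylip was at -0.0014, with DESeq2 at -0.0017, with voom at -0.045 and with the linear model at -0.031, and Ebp was at 0.0035 with voom. With 1 library left out, the range was -0.11 to 0.22 for Mvk, -0.24 to 0.013 for Tm7sf2, -0.091 to 0.17 for Nsdhl, -0.13 to 0.11 for Ebp, -0.055 to 0.16 for Scap, -0.047 to 0.17 for Ggps1, -0.0070 to 0.078 for Mbtps1, -0.14 to 0.15 for Mbtps2, -0.25 to 0.061 for Npc2, -0.60 to 0.035 for Soat1, -0.22 to 0.10 for Mylip and -0.032 to 0.45 for Hsd3b7.

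Depth limits the lowest genes: Mvk rested on 40 to 81 counts per library and Pmvk on 48 to 144, while Srebf2 had 2176 to 3970.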
